A study of Mus musculus with 7 samples.

Results

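The genes of the CD4 and CD8 coreceptors and of the lineage factor ThPOK were examined for peaks of the transcription factors LEF1 and TCF1 in naive mouse CD8 T cells from spleen. The 4 genes were Cd8a, Cd8b1, Cd4 and Zbtb7b, the last being the gene of ThPOK. Their members are the peak intervals of 6 lists that touch a gene body or 40 kb on either side of it, with gene positions from RefSeq on GRCm38.p6. This gave 189 distinct intervals of 148118 in all lists. Intervals that overlapped by at least 1 bp in different libraries were merged, which gave 43 regions of 38231 in the genome. The peaks come from CUT&RUN, in which an antibody brings a nuclease to a protein on chromatin, so that the DNA next to it is released and sequenced. There were 3 LEF1 and 3 TCF1 libraries, all from wild-type cells that carry the transgenic P14 T cell receptor, sorted as CD8+, Ly5.1+, CD44- and CD62L+. A further sample, an input control with no antibody that was sorted as CD8+, Ly5.1- and CD44+, is not analysed here. The labels give neither an age nor separate animals for the replicates, so the spread between libraries may be technical.

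CD8 is a coreceptor made of an alpha chain (Cd8a) and a beta chain (Cd8b1) that binds MHC class I, while CD4 binds MHC class II. Developing T cells carry both, then keep one and silence the gene of the other. ThPOK, a zinc finger repressor, directs cells to the CD4 lineage and holds the Cd8 genes down, and Runx3 does the opposite in the CD8 lineage, where it acts through silencer elements in Cd4 and Zbtb7b. The Cd8 genes lie side by side and are controlled by a series of enhancers in and around them. The Cd4 silencer lies in the first intron of the gene. TCF1 and LEF1, related HMG proteins that bind words such as CTTTGAA, are known to promote ThPOK in CD4-lineage cells and to take part in Cd4 silencing in CD8 T cells. The files do not annotate these elements, so no interval is assigned to a named enhancer or silencer below.

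The DNA before the start sites was read from a RefSeq promoter table of the same build, which held Cd8a with 1 start site and Zbtb7b with 2. These sequences are shown because the Cd8a start carried an interval in all 6 libraries while neither Zbtb7b start carried any. Each is the 250 bases before the start, 5′ to 3′ on the strand of the gene, and capitals mark the bases that lie inside the intervals of all 6 libraries. The Cd8a sequence is chr6:71373177-71373426 on the plus strand, and the Zbtb7b sequences are chr3:89393379-89393628 and chr3:89387672-89387921 on the minus strand.
Cd8a: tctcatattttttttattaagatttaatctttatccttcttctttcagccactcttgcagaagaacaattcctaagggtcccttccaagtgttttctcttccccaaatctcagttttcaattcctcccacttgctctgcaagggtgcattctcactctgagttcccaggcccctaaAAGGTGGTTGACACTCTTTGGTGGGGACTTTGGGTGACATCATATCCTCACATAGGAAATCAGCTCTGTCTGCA
Zbtb7b, start at 89393378: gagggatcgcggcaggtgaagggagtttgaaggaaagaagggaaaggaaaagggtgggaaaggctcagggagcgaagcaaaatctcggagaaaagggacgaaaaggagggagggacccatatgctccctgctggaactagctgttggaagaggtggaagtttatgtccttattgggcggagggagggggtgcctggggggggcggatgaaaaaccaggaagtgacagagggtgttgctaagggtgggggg
Zbtb7b, start at 89387671: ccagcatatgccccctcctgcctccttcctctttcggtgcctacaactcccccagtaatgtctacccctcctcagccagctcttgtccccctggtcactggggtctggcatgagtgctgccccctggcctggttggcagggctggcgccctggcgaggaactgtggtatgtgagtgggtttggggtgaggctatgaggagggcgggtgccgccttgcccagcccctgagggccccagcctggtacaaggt

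Words bound by TCF/LEF factors (CTTTGAA with its variants CTTTGAT and, shorter by a base, CTTTGT) and the RUNX word ACCACA were searched on both strands. None was in the Cd8a sequence. The Zbtb7b sequence of the start at 89387671 held ACCACA once, on the opposite strand at position -89 from the start, and the other Zbtb7b sequence held none of the words. Of 32851 RefSeq promoters of the same length, 4.46% held CTTTGAA, 3.21% held CTTTGAT, 16.5% held CTTTGT and 14.1% held ACCACA. The shorter word CTTTG, which is contained in the TCF/LEF words and was added after the sequences were seen, occurred in the Cd8a sequence at positions -59 and -47. Both lay inside the 74 bases covered in all 6 libraries, but 15.7% of promoters held CTTTG at least 2 times. A region of any library touched 26.3% of the promoters, and a region of all 6 touched 13%.

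The lists held 23704 to 37646 intervals for LEF1 and 11423 to 25623 for TCF1, with the fewest in TCF1 replicate 3 and the most in LEF1 replicate 2. Read totals are not given in the files, so the depth is unknown. A region is called held by a factor when at least 2 of its 3 libraries have an interval in it. The authors' fold enrichment at the summit of a peak is used to rank peaks within a list, and a percentile near 0 marks the strongest peaks of that list. The cell label was set against marker genes by asking for a region of all 6 libraries in the gene body or 1 kb around it, which 26.5% of protein-coding genes had. All 5 genes of the list for CD8 T cells had one, of which Cd3e, Cd3d and Cd3g mark T cells in general and Cd8a and Cd8b1 are the genes studied here, against 0 of 5 B cell markers, 0 of 3 NK cell markers, 1 of 4 myeloid markers (Itgam) and 1 of 3 markers of CD4 and regulatory T cells (Cd4 itself). For a region held by LEF1 instead, the counts in the same order were 5 of 5, 2 of 5, 1 of 3, 2 of 4 and 2 of 3 (43.5% of genes). For TCF1 they were 5, 2, 0, 1 and 2 (41.4%). Lists this short do not settle the cell label. A peak is not a measure of expression, and in bulk cells a site cut in few cells and one cut weakly in many cannot be told apart. Whether a peak marks the bound factor or cuts at open DNA was not tested.

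At the Cd8a-Cd8b1 locus, LEF1 and TCF1 peaks formed one of the densest groups in the genome. The locus with its flanks (chromosome 6, 71282788 to 71419171, 136 kb) held 34 regions, or 0.249 per kb. LEF1 held 26 of them and TCF1 held 21, where 71.7% and 55.5% of all regions in the genome were held. All 21 TCF1 regions were also held by LEF1, as were 96.5% of TCF1 regions in the genome, and TCF1 shared 21 of the 26 LEF1 regions, where it shared 74.7% in the genome. Thus 21 regions were held by both factors (53.6% of all regions were; 13 at the locus without TCF1 replicate 1 or without TCF1 replicate 2), 5 by LEF1 and not TCF1 (18.1%), and none by TCF1 and not LEF1 (1.93%). An interval was present in all 6 libraries at 13 regions (28.5% of all regions) and in 1 library at 8 (23.1%). Of those 8, 7 were intervals of LEF1 replicate 2, the longest list. Leaving that library out lowered the number of regions in the genome from 38231 to 30557. All 7 regions with 5 libraries lacked TCF1 replicate 3, the shortest list. In the genome 8251 of 38231 regions had 5 libraries, but which library they lacked was not counted. These counts by library are therefore not read as traits of the locus.

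The place of the locus was read against the whole genome. When the chromosomes were divided into 19930 tiles of the same length as the locus, 6 tiles held 34 or more regions, and the median tile held 0. The tiles ran from the first base of each chromosome and could split clusters, while the locus window was set around its genes. The comparison is therefore unequal and can make the locus look rarer than it is. The Cd8b1 window held 29 regions, LEF1 holding 23 and TCF1 19 (12 without TCF1 replicate 1 or 2). The Cd8a window held 24, LEF1 holding 19 and TCF1 15 (10 without TCF1 replicate 1 or 2). These windows overlap and have 19 regions in common. Of 21887 protein-coding genes, 70.8% had a region in their window, with a median of 2 regions. At least 29 regions were found at 58 genes (0.265%) and at least 24 at 109 genes (0.498%), Cd8b1 and Cd8a included. In regions per kb of window, Cd8b1 stood at place 10 with 0.306 and Cd8a at place 15 with 0.28, where the median gene had 0.021. The genes ahead of Cd8b1 were named after their values were seen. In order they were Ms4a6c (0.388 per kb), Ccr7 (0.363 per kb), Gimap6, Ms4a4b, Gpr183, Gimap4, Gpr18, Rhoh and Tcf7 (0.317 per kb). Ccr7 encodes a receptor for entry into lymph nodes, and Tcf7 is the gene of TCF1 itself. Windows of neighbouring genes can overlap and count the same regions, as those of Cd8a and Cd8b1 do. Cd4 and Zbtb7b were ordinary by the same count, as 38.7% of genes had at least the 4 regions of Cd4 and 30.4% at least the 5 of Zbtb7b.

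**Figure D1:**
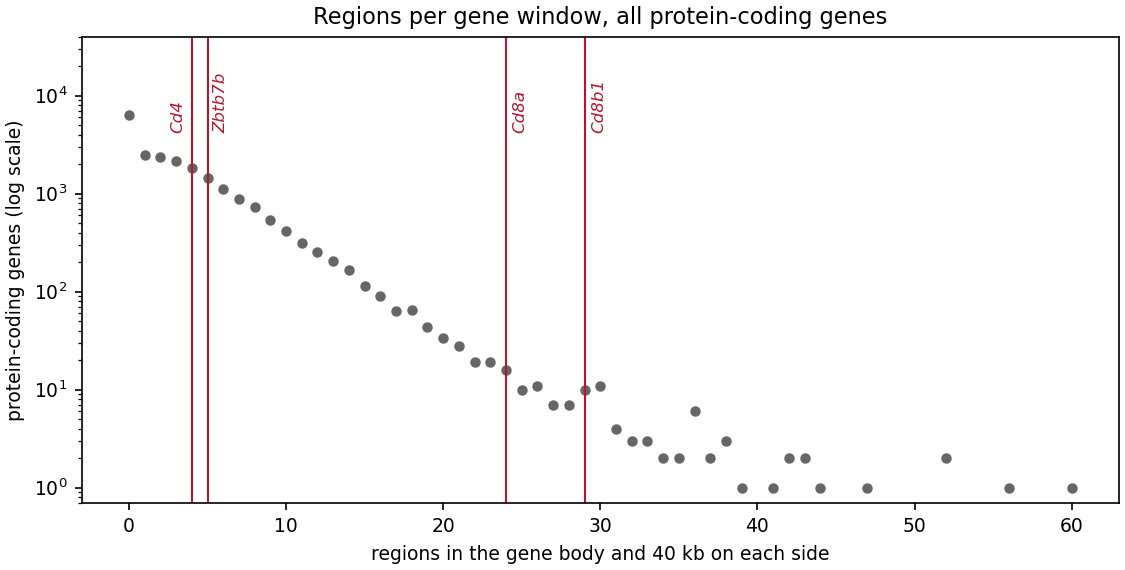
Number of protein-coding genes (log scale) against the number of regions in the gene body with its 40 kb flanks. Red lines mark the 4 genes, with Cd4 at 4 and Zbtb7b at 5 regions in the bulk of genes and Cd8a at 24 and Cd8b1 at 29 in the sparse upper end.

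The high place of the Cd8 genes was found under every change to the lists that was tried. With lists of equal size (the 11423 peaks of highest −log10 q in each), the locus held 15 regions, and 0.256% of genes had at least as many as the 13 of Cd8b1 and 0.315% at least as many as the 12 of Cd8a. Without LEF1 replicate 2 the locus held 28 regions, and the shares were 0.224% and 0.402%. Without TCF1 replicate 3 it held 34, and the shares were as above. Counting regions of all 6 libraries alone, Cd8b1 had 12 and Cd8a had 10, reached by 0.123% and 0.329% of genes. The places of Cd4 and Zbtb7b moved with the setting. For Cd4 the share of genes was 20.45% with lists of equal size and 26.31% for regions of all 6 libraries. For Zbtb7b these shares were 34.02% and 26.31%. The CD3 chain genes, another locus of T cell surface genes, held 19 regions over 120 kb, or 0.158 per kb.

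In each library the Cd8a-Cd8b1 locus held 14 to 33 intervals. LEF1 replicates 1, 2 and 3 had 27, 33 and 26 intervals, and TCF1 replicates 1, 2 and 3 had 23, 23 and 14. Every LEF1 library had more than every TCF1 library, as was the case at 8.01% of gene windows with a region. The means were 28.7 ± 3.79 for LEF1 and 20 ± 5.2 for TCF1 (SD, n = 3 each), a difference of 8.67 intervals (exact permutation test, two-sided, p = 0.1, adjusted over 5 windows p = 0.167; 0.1 is the smallest p that 3 libraries against 3 can give). The difference depended on the scale. Per 10000 peaks of a list, a scale added after the data were seen, LEF1 had 9.83 and TCF1 had 10.4 (difference -0.594, exact permutation p = 0.6), and with lists of equal size the means were 13 and 12.7. Around Cd8a alone the difference was 6 intervals (21 ± 1.73 against 15 ± 3.46) and around Cd8b1 it was 7 (25 ± 2.65 against 18 ± 4.36; SD, n = 3 each; exact permutation p = 0.1 for both windows, two-sided, adjusted p = 0.167). Intervals of the locus covered 14.6 to 20.4 kb in the LEF1 libraries and 5.64 to 13.2 kb in the TCF1 libraries. These lengths are not scaled to the lists, which in all covered 10.7 to 16.1 Mb for LEF1 and 4.33 to 11.7 Mb for TCF1.

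**Figure D2:**
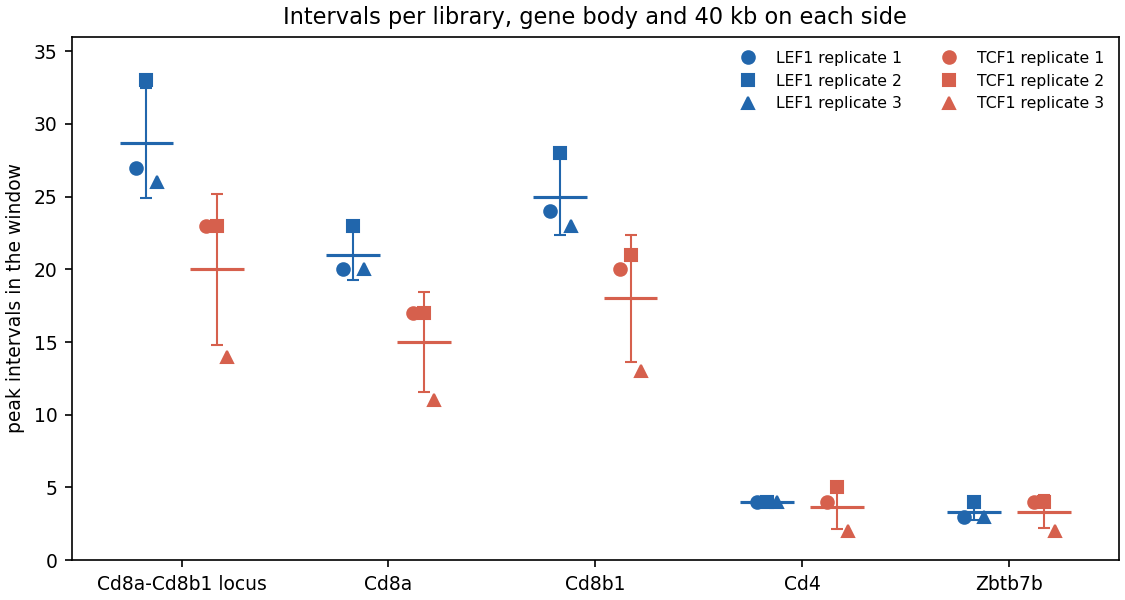
Peak intervals in each window (gene body with 40 kb flanks) for the 6 libraries, with symbols for replicates, horizontal lines for means and bars for SD (n = 3). The LEF1 libraries lie above the TCF1 libraries at the Cd8a-Cd8b1 locus, with 26 to 33 against 14 to 23 intervals, and overlap them at Cd4 and Zbtb7b, where all counts are between 2 and 5.

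The regions were spread unevenly along the locus. The 35.9 kb between Cd8b1 and Cd8a held 16 regions by their midpoints, or 0.445 per kb, of which LEF1 held 13, TCF1 held 11 and 7 were in all 6 libraries. The 40 kb before Cd8b1 held 8 regions (0.2 per kb), the 14.7 kb Cd8b1 body 3 (0.204 per kb), the 5.75 kb Cd8a body 2 (0.348 per kb) and the 40 kb after Cd8a 5 (0.125 per kb). The 16 regions between the genes included the one across the Cd8a start, whose median summit lay 0.029 kb inside Cd8a. The order per kb of this section and the Cd8a body therefore depends on the use of midpoints. The median distance between neighbouring regions was 2.03 kb. The widest gap between neighbouring regions inside the window, 15.4 kb, lay beyond Cd8a from 71383787 to 71399140, before a region inside the neighbouring gene Rmnd5a. On the other side, the neighbour Gm1070 held 2 regions in its body or within 1 kb, and the one region of Krcc1 lay outside the window. Positions below are in kb from the Cd8a start, with negative values toward Cd8b1, whose start lies at -50.6.

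**Figure D3:**
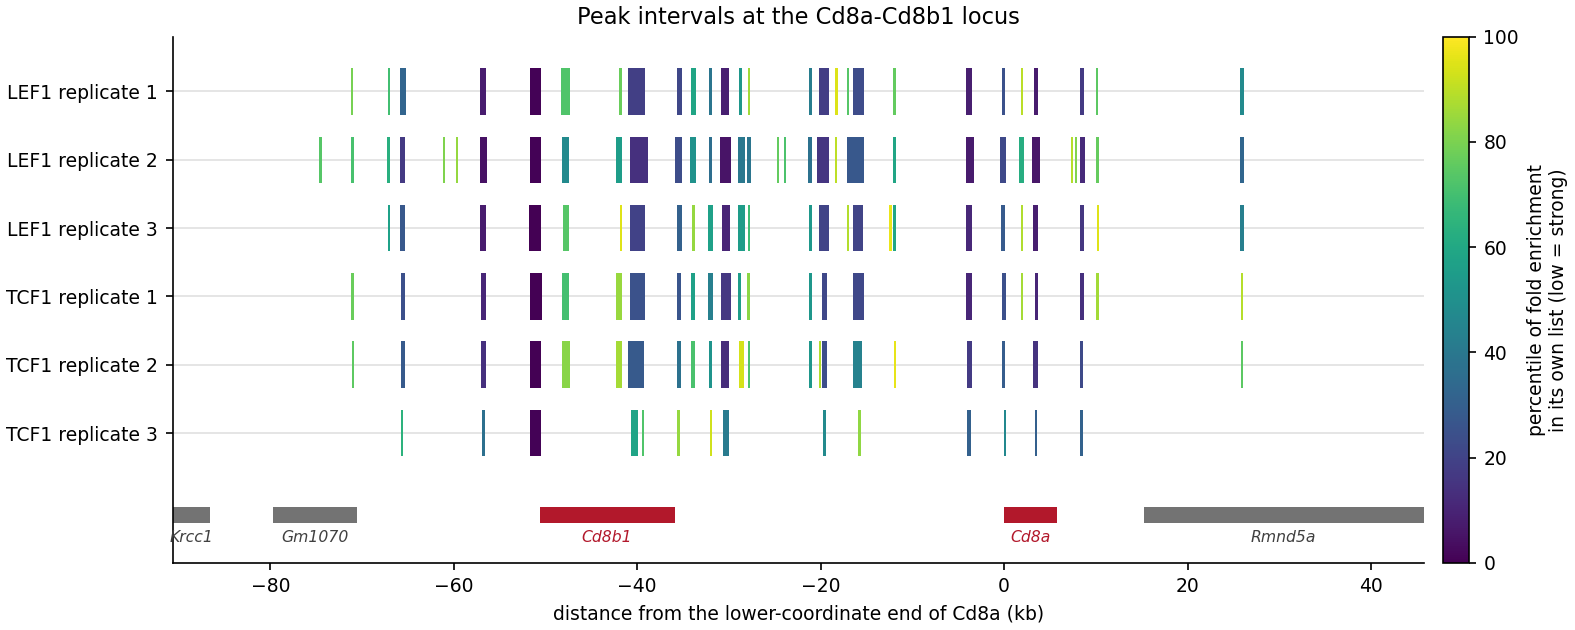
Intervals of the 6 libraries along the Cd8a-Cd8b1 locus, as distance in kb from the lower-coordinate end of Cd8a, coloured by the percentile of fold enrichment in their own list. Grey and red bars below are protein-coding genes. The intervals stack in the same places in LEF1 and TCF1, and the darkest stack lies at the start of Cd8b1. The space between the genes holds the most regions.

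The strongest region of the locus in each of the 6 libraries covered the start of Cd8b1 (chromosome 6, 71321636 to 71323003), the gene of the CD8 beta chain. Its fold enrichment was 94.5, 114.5 and 96.6 in LEF1 replicates 1, 2 and 3 and 105.1, 105.7 and 54.5 in TCF1 replicates 1, 2 and 3. TCF1 replicate 3 was the lowest and the other TCF1 libraries lay within the LEF1 range. In every list it was among the strongest peaks, at percentiles of 0.275 to 0.683. By its mean percentile it took place 91 of the 10890 regions found in all 6 libraries. All 6 summits fell on the same base, 71322512, which is 0.276 kb before the gene start. Identical summits were found at 2.08% of regions of all 6 libraries.

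The start of Cd8a, the gene of the alpha chain, carried a weaker region (71372947 to 71373657). Fold enrichment there was 18.8, 23.1 and 16.2 in the LEF1 libraries and 19.3, 16.8 and 9.99 in the TCF1 libraries. The 2 groups overlapped, and only TCF1 replicate 3 lay below the LEF1 range. The percentiles were 22.0 to 46.8, close to the middle of the regions of all 6 libraries (place 5984 of 10890). Its median summit was 0.029 kb inside the gene.

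Several regions away from the starts ranked above that of the Cd8a start. Inside Cd8a, a region at 3.47 kb (71376484 to 71377295) had fold enrichments of 37.1, 48.7 and 33.0 in the LEF1 libraries and 32.3, 25.6 and 13.2 in the TCF1 libraries. At -3.8 kb (71369250 to 71370086) the values were 35.8, 45.5 and 28.5 for LEF1 and 32.2, 23.4 and 13 for TCF1. Inside Cd8a every TCF1 value was below every LEF1 value, as was the case at 18% of the 10890 regions of all 6 libraries. At -3.8 kb TCF1 replicate 1 lay within the LEF1 range, and in their own lists both regions ran from percentile 6.22 to 30.8. Between the genes, the region at -30.3 kb (71342435 to 71343623) had 34.8, 53.0 and 30.0 for LEF1 and 25.5, 27.8 and 10.9 for TCF1. Before Cd8b1, the region at -56.8 kb (71316270 to 71317000) had 36.5, 56.4 and 34.8 for LEF1 and 32.1, 26.3 and 11.8 for TCF1. At both of these regions every LEF1 value lay above every TCF1 value, which made 4 of the 13 regions of all 6 libraries at the locus, the region inside Cd8b1 included. The reverse was found at none of the 13 and at 0.321% in the genome. TCF1 replicate 3 was the lowest library at all 13 regions and at 96.1% in the genome. Fold enrichment depends on the depth and list of its library, so these values were not tested between factors.

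The remaining regions of all 6 libraries lay before Cd8b1 at -65.6 kb, inside Cd8b1 at -39.4 kb, between the genes at -35.4, -32.0, -19.6 and -15.8 kb, and after Cd8a at 8.47 kb. Their fold enrichments ran from 5.16 to 34.9 over the 6 libraries. The weakest was at -32.0 kb, with 9.31 to 15.7 in LEF1 and 5.16 to 12.4 in TCF1 libraries, and the strongest was at 8.47 kb, with 23.4 to 34.9 and 13 to 27.5. The region inside Cd8b1 was the widest of the locus at 2154 bp, and in TCF1 replicate 3 it was listed as separate intervals. Over the 13 regions, the order of fold enrichment was alike in all libraries, with Spearman's rho of 0.836 to 0.989 over the 15 pairs of libraries, as a description of regions that share lists and background. 4 regions were among the best 5 in every library, at the Cd8b1 start, at -56.8 kb, at -3.8 kb and inside Cd8a.

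**Figure D4:**
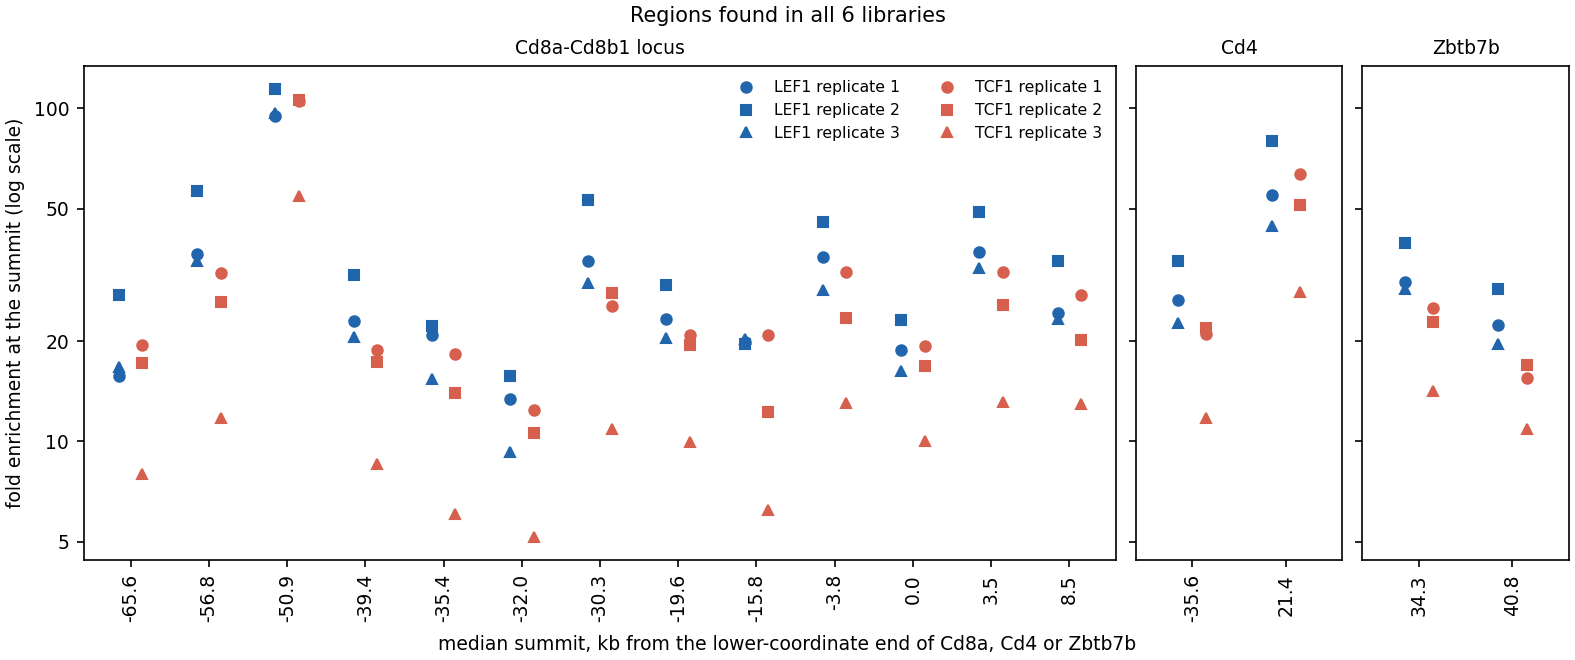
Fold enrichment at the summit (log scale) of the regions found in all 6 libraries, by their median summit in kb from the lower-coordinate end of Cd8a, Cd4 or Zbtb7b. Symbols are single libraries. The Cd8b1 start at -50.9 kb stands above the other regions in every library, the region inside Cd4 at 21.4 kb comes next, and TCF1 replicate 3 is lowest throughout.

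The 5 regions that LEF1 alone held were weak. They lay before Cd8b1 at -67.0 kb, between the genes at -18.3 and -11.9 kb, inside Cd8a at 1.84 kb and after it at 10.2 kb. Their fold enrichments in LEF1 libraries ran from 4.85 to 9.63, with mean percentiles of 63.2 to 92.5. At 3 of them 1 TCF1 library also had an interval, with fold enrichments of 4.76, 5.81 and 5.83. With lists of equal size LEF1 and TCF1 held 12 regions each at the locus, all 12 in common.

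Cd4, the gene that CD8 T cells keep silent, had a single region in its body, and this region was strong. The Cd4 window (chromosome 6, 124824693 to 124928247) held 4 regions, all held by both factors (2 without TCF1 replicate 1 or 2), with 2 present in all 6 libraries. Over the genome, 53.6% of regions were held by both factors and 28.5% were in all 6 libraries. Counts this small are not read as a trait of Cd4. The region inside the gene (124885167 to 124886421) had fold enrichments of 54.8, 79.9 and 44.3 in LEF1 replicates 1, 2 and 3 and 63.7, 51.3 and 28.0 in TCF1 replicates 1, 2 and 3. The groups overlapped, with TCF1 replicate 3 the lowest and LEF1 replicate 2 the highest. It lay at percentiles of 1.85 to 6.13 of its lists and took place 696 of the 10890 regions of all 6 libraries. The summits lay within 44 bp of each other, 2.15 kb inside the end of the gene with the higher coordinate, which is the promoter end by general knowledge of Cd4. Whether the region is intronic, and whether it overlaps the silencer, was not resolved, since the tables used here have no exons. The rest of the gene held no interval: 55.0 kb from 124830176 to 124885166, over Gnb3, P3h3, Gpr162 and most of Cd4, were empty in all 6 libraries.

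The other regions of the Cd4 window belonged to its surroundings. Beyond the promoter end lay a region at 124898143 to 124898696 and another at 124900444 to 124901355, with summits 10.3 and 12.3 kb from Cd4 and 5.84 and 3.77 kb from Lag3, the gene of an inhibitory receptor that also binds MHC class II. The farther one was the stronger, with fold enrichments of 17.7 to 29.3 in LEF1 and 17.5 and 19.1 in TCF1 libraries. The nearer one had 8.63 to 12.6 and 8.50 and 9.74. Both were absent from TCF1 replicate 3 alone. No region lay in the body of Lag3 or within 1 kb of it. The last region spanned the adjoining ends of Usp5, which encodes a ubiquitin protease, and Cdca3, a cell division gene (124828696 to 124830175), with fold enrichments of 22.7 to 34.7 in LEF1 and 11.8 to 21.9 in TCF1 libraries and all 6 summits on base 124829073.

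LEF1 libraries had 4 intervals each in the Cd4 window and TCF1 replicates 1, 2 and 3 had 4, 5 and 2. The difference of 0.333 was smaller than the TCF1 SD of 1.53 (n = 3; exact permutation test, two-sided, p = 1, adjusted p = 1), and it was -0.5 without TCF1 replicate 3.

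**Figure D5:**
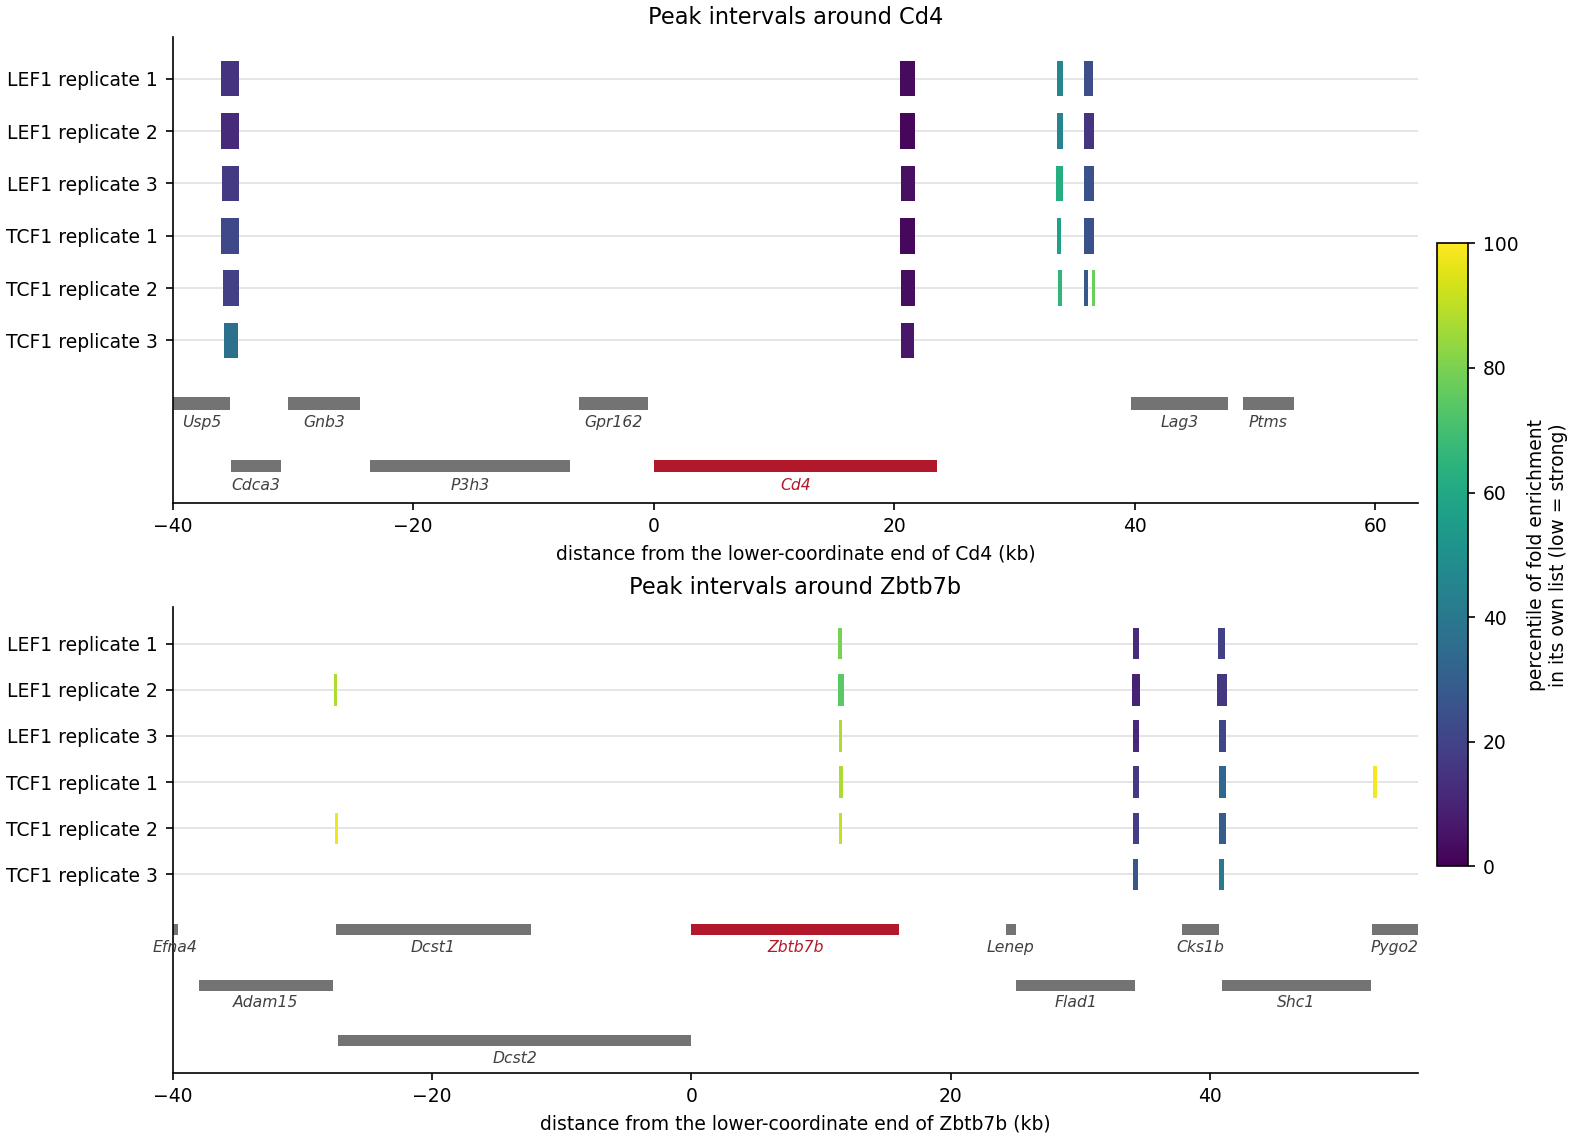
Intervals of the 6 libraries around Cd4 (top) and Zbtb7b (bottom), as distance in kb from the lower-coordinate end of the gene, coloured by the percentile of fold enrichment in their own list. Grey and red bars are protein-coding genes. Cd4 has 1 dark stack near its upper end, and Zbtb7b has 1 pale stack in its body, missing from TCF1 replicate 3, while the dark stacks lie at Flad1, Cks1b and Shc1.

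Zbtb7b, the gene of ThPOK, had 1 weak region in its body and none at its starts. Its window (chromosome 3, 89337644 to 89433673) held 5 regions, 3 of them held by both factors (2 without TCF1 replicate 1 or 2) and the others by neither. In the genome 53.6% of regions were held by both factors, and 10091 of 38231 by neither. The region inside the gene (89388937 to 89389371) had fold enrichments of 6.63, 7.31 and 5.71 in LEF1 replicates 1, 2 and 3 and 5.71 and 5.43 in TCF1 replicates 1 and 2, with no interval in TCF1 replicate 3. These are in the weaker part of each list, at percentiles of 74.3 to 91.2. With lists of equal size no library kept an interval there. The region lay 1.27 kb before the start site at 89387671 and 4.01 kb from that at 89393378, whose sequences are shown above. From its end to 89411617, 22.2 kb that take in the rest of the gene on the side of its outer start site, no library had an interval.

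All other regions of the Zbtb7b window lay at or near the ends of neighbouring genes. The strongest covered one end of Flad1, which encodes FAD synthase (89411618 to 89412215), with fold enrichments of 30, 39.3 and 28.7 in the LEF1 and 25.2, 22.8 and 14.2 in the TCF1 libraries. Every LEF1 value was above every TCF1 value at this region and at the next, where the share in the genome was 18% as given above. The next was the region between Cks1b, a cell cycle gene, and Shc1, the gene of a signalling adaptor (89418159 to 89418903), with 19.6 to 28.8 and 10.9 to 17.0. At the end of Dcst1, within 1 kb of Adam15 and Dcst2, only LEF1 replicate 2 and TCF1 replicate 2 had an interval (5.75 and 4.46), and in Pygo2, a Wnt pathway gene, only TCF1 replicate 1 had one (4.05). The LEF1 libraries had 3, 4 and 3 intervals in the window and the TCF1 libraries 4, 4 and 2, with a mean of 3.33 in both (SD 0.577 and 1.15, n = 3 each; exact permutation test, two-sided, p = 1, adjusted p = 1).

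The strongest regions that touched each gene differed by this ranking. Mean percentiles over the libraries with an interval were 0.437 for the Cd8b1 start, whose summit lies just outside the gene, 3.46 for Cd4, 13 for the region inside Cd8a and 84.0 for Zbtb7b. The percentile ranges over libraries, 0.275 to 0.683, 1.85 to 6.13, 6.22 to 30.2 and 74.3 to 91.2, did not overlap, so the order was the same in every library, with the Zbtb7b region missing from TCF1 replicate 3. By the regions inside the bodies alone the order was another, since those inside Cd8b1 had mean percentiles of 27.2, 69.3 and 79.7, weaker than the best of Cd4 and Cd8a.

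The limit of 40 kb left little near its edges at the Cd8 genes. The outermost regions inside it lay 23.7 kb before Cd8b1, in LEF1 replicate 2 alone, and 20.0 kb after Cd8a, in 5 libraries, and the nearest outside it lay 50.9 kb before, in 6 libraries at percentiles of 37.3 to 88.4, and 44.1 kb after, in 1 library. For Cd4 the regions just inside lay at 34.5 and 12.2 kb and those just outside at 55.9 kb, in 1 library, and 42.4 kb, in all 6. For Zbtb7b they were at 27.3 and 36.5 kb inside and at 77.7 and 42.9 kb outside, in 2 and 3 libraries.

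Genes that regulate the CD4 and CD8 choice or the coreceptor genes carried regions of both factors. Of 18 such genes, all 18 had a region held by LEF1 and one held by TCF1 in the body or 1 kb around it. Of protein-coding genes, 43.5% and 41.4% did. A region of all 6 libraries was found at 16 of the 18, where 26.5% of protein-coding genes had one. The median was 17 regions per 40 kb window, against 2 over all genes. The counts rise with gene length and were not matched for it. The list was chosen with earlier results of these data known and includes Lef1 and Tcf7 themselves. The counts therefore describe these genes and do not test regulators as a group. Runx3, the factor of the CD8 lineage, held 25 regions in its window and 11 in its 57.4 kb body or within 1 kb of it, of which LEF1 held 10 and TCF1 7. By the same count of bodies, Runx1 held 27 over 225 kb. Gata3, which acts before ThPOK in the CD4 lineage, held 6, and Tox, needed for CD4 lineage development, held 16 over 305 kb. Patz1, which encodes the repressor MAZR of Cd8 and Zbtb7b, held 5. Myb, a transcription factor of early T cells, and Chd4, a chromatin remodeller, held 2 regions each and none in all 6 libraries. Of the others, Lef1 held 32, Ikzf1 27, Bcl11b 25, Satb1 22, Tcf7 16, Tcf12 15, Smarca4 4, Cbfb and Tcf3 2 each, and Zbtb7a and Mta2 1 each.

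The genes most alike in their counts were found by the Euclidean distance between interval counts in the 6 libraries, over 21856 genes with windows apart from the 4. For Cd8a they were Cblb (distance 2), Tnf and Lta (2.24 each). For Cd8b1 they were Gramd3 (3.16), Gpr183 and Pde4d (4.24 each). Cd4 had the same 6 counts as Tmem106a, followed by Atp6v1e1 and Chrm1 (distance 1). Zbtb7b shared its 6 counts with 9 genes, of which Cep68, Clic1 and Gpr65 were nearest in length.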

How the data were processed

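The files analysed are peak lists of 3 LEF1 and 3 TCF1 CUT&RUN libraries. The submitters' processing notes name the aligner Bowtie2 2.4.4 and the peak caller MACS3 3.0.3, besides FastQC 0.12.1, Picard, deepTools 3.5.1 and Trim Galore 0.6.6, and the build GRCm38.p6. The caller's options and its control sample were not given in the sources used here. Each library has a peak list of its own. The authors deposited for each peak a fold enrichment (a ratio to local background), −log10 p-values and q-values, a score made from the −log10 q, and a summit. The smallest −log10 q of each deposited list was 2.00 to 2.06.

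Of the listed intervals, those on the autosomes and on X and Y were kept, 1-based, and each was distinct within its list. Those overlapping by at least 1 bp across libraries were merged into regions. Fold enrichment was ranked within each list. Gene positions came from a RefSeq table of GRCm38.p6 with 21887 protein-coding genes, without exons or strand, and promoter sequences from RefSeq of the same build. By symbol, 2 of the 4 genes matched the promoter table. Positions and the promoter end for Cd8b1 and Cd4 follow their known orientation. Interval counts were compared with two-sided exact permutation tests that enumerate all 20 assignments (Python 3.11.15, numpy 2.4.6), with Benjamini-Hochberg adjustment over 5 windows, 3 of which overlap. The code was tested on simulated data.

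Named are the 4 genes, the neighbours holding a region, 18 regulators, the regions of all 6 libraries or of 1 factor, and the 3 genes most alike. Members and lists were chosen with earlier results of these data known. Alternatives were flanks of 10, 20 and 100 kb, equal list sizes, a −log10 q of at least 5, other definitions of a region, leaving out each library and a replicate block.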

Additional observations from a re-analysis of the deposited data

How the results depend on the processing

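Differences in interval counts, LEF1 minus TCF1, changed direction on the scale of intervals per 10000 peaks, which was chosen after seeing the data: -0.594 at the Cd8a-Cd8b1 locus, -0.637 around Cd8a, -0.847 around Cd8b1 and -0.433 around Cd4 (exact permutation p = 0.2 to 0.6), and -0.549 around Zbtb7b (exact permutation p = 0.1), where the counts themselves had no difference. Under the other settings the difference at the Cd8 windows stayed positive, except around Cd8b1 with equal list sizes. Equal list sizes left little of the difference. It was then 0.333 at the locus and around Cd8a, against 8.67 and 6 as reported, and 0 around Cd8b1. With each library left out in turn the difference was 5.67 to 10.2 intervals at the locus, 4 to 7 around Cd8a, 4.5 to 8.5 around Cd8b1, -0.5 to 1 around Cd4 and -0.667 to 0.333 around Zbtb7b. Counting each listed summit changed nothing, since no list held an interval more than once.

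The number of regions held by both factors depended on the rule. With equal list sizes it was 12 at the locus (21 as reported), 9 around Cd8a (15) and 11 around Cd8b1 (19). Under the same setting it was 3 around Cd4 (4 as reported) and 2 around Zbtb7b (3). With a peak required in all 3 libraries it was 13 at the locus, 10 around Cd8a and 12 around Cd8b1. Around Cd4 and Zbtb7b it was then 2 each. With 10 kb flanks it was 4 around Cd8a, 11 around Cd8b1, 2 around Cd4 and 1 around Zbtb7b (3), with 20 kb flanks 7 around Cd8a, and with 100 kb flanks 5 around Cd4 and 5 around Zbtb7b. With each library left out it was 13 to 21 at the locus, 10 to 15 around Cd8a and 12 to 19 around Cd8b1. Around Cd4 it was 2 to 4 and around Zbtb7b 2 to 3. The low values came without TCF1 replicate 1 or 2, where TCF1 replicate 3 had to hold the region.

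The labels do not say whether same-numbered libraries share animals or a batch. Over gene windows, their deviations from the group means correlated at -0.0313, 0.163 and 0.254. Not every library correlated best with its own number. With 3 libraries per group, these correlations cannot decide whether the numbers mark pairs. In the fit with the replicate block, an exact sign-flip test over the 3 pairs, the difference was 8.67 intervals at the locus (p = 0.25, the smallest it allows), 6 around Cd8a, 7 around Cd8b1, 0.333 around Cd4 and 0 around Zbtb7b. Read depth is unknown, so an absent interval is not a measure of absent binding.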
